A study of Mus musculus with 15 samples.

Results

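Collagens are proteins of 3 chains wound into a triple helix, and most of their family does not build the thick fibrils of scar tissue. Type IV chains form the sheet of basement membranes, type VI chains form beaded filaments around cells, type VIII chains form a hexagonal network, and the fibril-associated collagens with interrupted triple helices (FACIT) sit on the surface of fibrils. Transmembrane collagens are anchored in the cell membrane, and the multiplexins, types XV and XVIII, lie in the zone where basement membranes meet other matrix. In normal liver the sinusoids lack a continuous basement membrane, and deposition of type IV and type VI collagen along them is a known feature of fibrosis.

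The genes described here were taken by symbol from the count table: every symbol of the form Col, a number, a and a number, except the fibrillar chains Col1a1, Col1a2, Col3a1, Col5a1, Col5a2, Col5a3 and Col11a1. This gave 37 of 57132 gene identifiers. Of the 37, 29 had enough counts to be tested, and the other 8 (Col2a1, Col6a4, Col9a1, Col10a1, Col17a1, Col19a1, Col22a1 and Col26a1) had at most 16 counts in any library. The rule is not fully a rule of non-fibrillar collagens, because it keeps 4 chains of the fibril-forming class: Col2a1, Col11a2, Col24a1 and Col27a1. These are described apart. The genes fall into 6 type IV chains, 2 multiplexins, the anchoring fibril chain Col7a1, 3 network chains, 7 beaded-filament chains, 9 FACIT chains, 4 transmembrane chains, the 4 fibrillar chains and Col26a1.

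RNA from pieces of whole liver was sequenced in male C57BL/6J mice, 8 weeks old at the start, in 3 groups. Chow mice (4 libraries) ate a standard diet for 18 weeks. Vehicle mice (5 libraries) ate CDA-HFD, a high-fat diet deficient in choline with an adapted amino-acid content that is used as a model of steatohepatitis with fibrosis, for the same time, with daily intraperitoneal injections of 15% Kolliphor ELP in saline over the last 6 weeks. SR9009 mice (5 libraries) ate the same diet and were injected with SR9009, a synthetic agonist of the REV-ERB nuclear receptors, at 100 mg/kg per day over those weeks. The labels name no injection for Chow mice, so in comparisons with Chow the effects of diet and injection cannot be told apart. Another Chow library was not analysed here.

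Libraries held between 29950509 and 45542335 counts, and a gene with 3 counts had a level of 0.0607 to 0.124 CPM (its count divided by the library total, which was first adjusted by the trimmed mean of M-values, TMM). Hepatocyte markers such as Alb were high in every library, in keeping with the label liver, with a summed level between 68323 and 152125 CPM over 12 markers. The labels do not say that each library came from a separate mouse, so p-values measure the spread between these samples, part of which may be technical. The number of vomeronasal, olfactory or trace amine receptor genes detected parted the diet-fed libraries: it was 63 to 82 in Vehicle replicates 4 and 5 and SR9009 replicates 1 and 3, and 158 to 243 in the other 6. In Chow it was 50 to 113. The 7 genes in which these 2 kinds of diet-fed library did not overlap, among them Col4a4, Col4a5 and Col6a2, are given by kind at the end.

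Vehicle was compared with Chow to ask what the diet, with vehicle injections, did to these genes. Of the 29 tested genes, 17 were higher in Vehicle, 4 were lower and 8 did not pass the test (edgeR's quasi-likelihood test, Benjamini-Hochberg adjusted p under 0.05 over 18181 genes). Of all tested genes, 29.8% were called higher and 25.4% lower. The median log2 fold change was 1.62 over the 29 genes and 0.0235 over all tested genes. All 6 type IV chains, 4 of 6 tested beaded-filament chains and 4 of 6 tested FACIT chains rose, while Col18a1, Col20a1, Col25a1 and Col27a1 fell. In RNA from whole tissue, fewer cells of a type and less RNA per cell cannot be told apart.

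**Figure D1:**
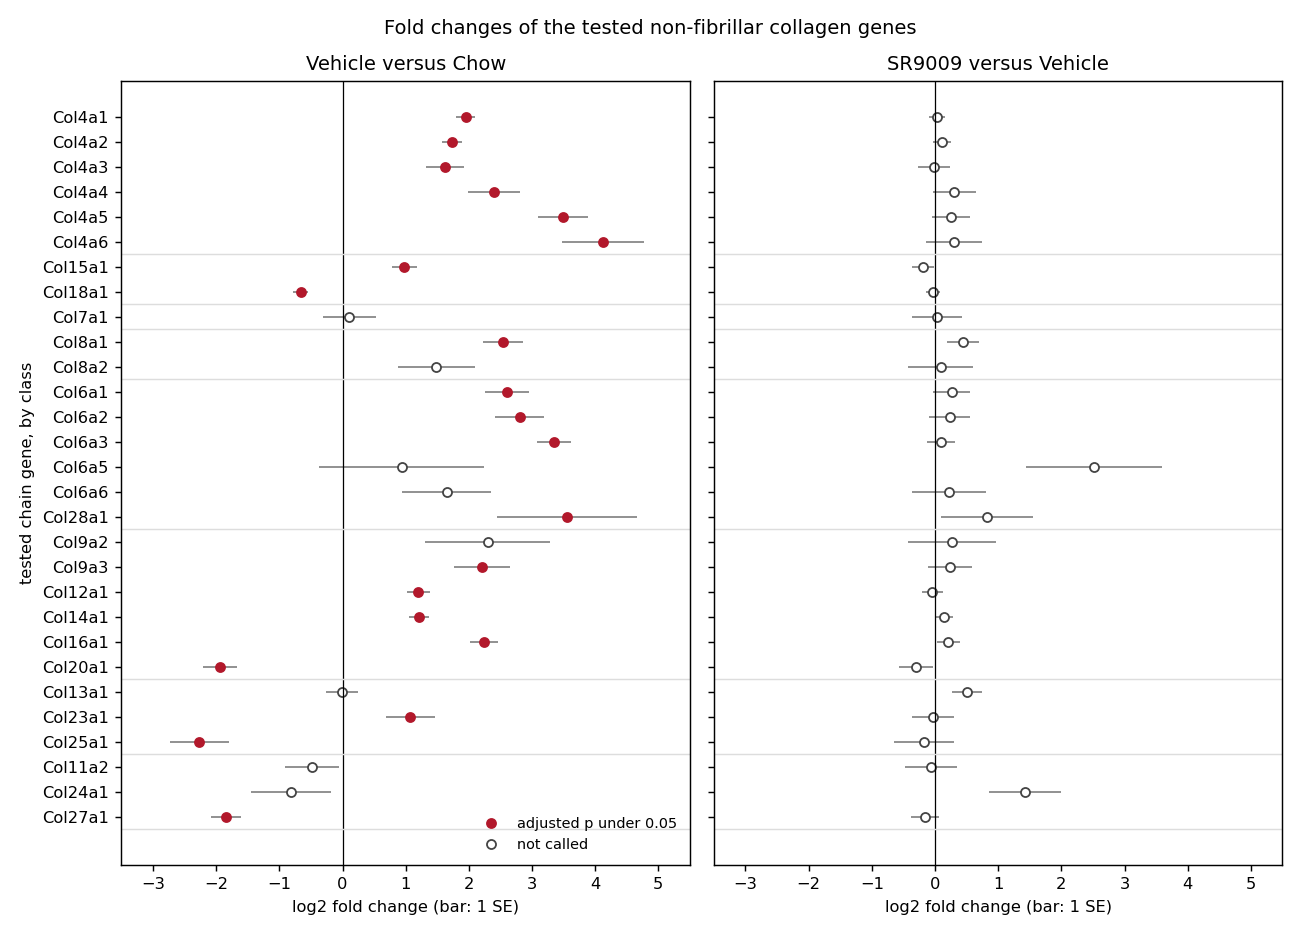
Log2 fold change (x axis) of each tested gene (y axis, grouped by class), for Vehicle versus Chow on the left and SR9009 versus Vehicle on the right; points are edgeR estimates, bars 1 standard error, and filled points have an adjusted p under 0.05. In the left panel 17 genes lie to the right and 4 to the left of 0 as filled points, with Col4a6 at 4.12 farthest right; no point in the right panel is filled.

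The type IV chains rose together, but by very different amounts. Col4a1 and Col4a2, whose chains make the type IV molecule found in nearly all basement membranes, were the most abundant of the 6. Col4a1 was at 40.6, 34.6, 33.7 and 37.3 CPM in Chow, 152, 167, 136, 135 and 115 in Vehicle and 146, 183, 107, 159 and 128 in SR9009, with replicates in numerical order here and below. Every diet-fed library lay above every Chow library, and the log2 fold change for Vehicle versus Chow was 1.95 ± 0.145 (SE here and below; adjusted p = 3.49e-08), a 3.86-fold rise. Col4a2 was at 27.7, 25.4, 25.5 and 30 CPM in Chow, 86.1, 112, 81.2, 95.3 and 77.2 in Vehicle and 90.4, 126, 70.5, 115 and 87.2 in SR9009. It rose 3.33-fold (1.74 ± 0.156, adjusted p = 2.85e-07), again with no overlap. Col4a3, Col4a4 and Col4a5 encode the chains of the molecule best known from the kidney glomerulus and from Alport syndrome. Col4a3 was at 1.02, 0.659, 1.06 and 0.618 CPM in Chow, 2.74, 2.26, 3.33, 3.1 and 1.47 in Vehicle and 1.82, 3.64, 2.0, 3.18 and 2.11 in SR9009. Col4a4 was at 0.912, 1.8, 0.53 and 0.948 CPM in Chow, 5.93, 6.0, 7.31, 5.28 and 3.54 in Vehicle and 5.51, 10.9, 2.57, 9.54 and 6.18 in SR9009. Both were low in all Chow libraries, and rose 3.07-fold (1.62 ± 0.302, adjusted p = 2.73e-04) and 5.28-fold (2.4 ± 0.415, adjusted p = 1.68e-04). Col4a5 and Col4a6, whose chains combine in basement membranes of epithelia and smooth muscle, moved most. Col4a5 was at 1.82, 1.83, 0.662 and 1.07 CPM in Chow, 17.2, 20.2, 17.4, 13.4 and 8.35 in Vehicle and 14, 27.4, 10.2, 25 and 14.9 in SR9009, an 11.2-fold rise (3.49 ± 0.393, adjusted p = 4.24e-06). Col4a6 was at 0.246, 0.372, 0 and 0.371 CPM in Chow, 5.32, 5.01, 5.98, 3.26 and 2.14 in Vehicle and 3.01, 9.81, 2.44, 8.24 and 3.13 in SR9009, a 17.4-fold rise (4.12 ± 0.649, adjusted p = 8.05e-05). Col4a6 was at or below 0.372 CPM in the Chow libraries and at 2.14 CPM or more in every diet-fed library, so its fold change rests on few Chow counts. Summed, type IV chains stood at 67.2 ± 5.03 CPM (SD, n = 4) in Chow, 259 ± 37.7 (n = 5) in Vehicle and 276 ± 65.5 (n = 5) in SR9009.

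The 6 type IV genes lie in 3 head-to-head pairs. In the RefSeq annotation of GRCm38.p6 the outermost gene ends of Col4a1 and Col4a2 overlap by 85 bases on chromosome 8. Those of Col4a3 and Col4a4 overlap by 114 bases on chromosome 1, and those of Col4a5 and Col4a6 are 1274 bases apart on chromosome X. Whether counting used strand is not known here, so reads in the overlaps cannot be assigned with certainty. The start regions of Col4a5 and Col4a6 are shown because this pair rose most, and those of Col18a1 and Col27a1 because these were the 2 genes with the highest level per kilobase of exon in Chow and both fell. Each line gives the nearest 120 exon-free bases before the start of a RefSeq promoter window in GRCm38.p6. Matches to GGGCGG or its reverse complement CCGCCC, the GC box, are in capitals. These starts need not be the outermost gene ends, so the gap of 1274 bases is not the distance between them. Exons were taken from the GRCm38 annotation that gave the exon lengths, not from RefSeq.
Col4a5 (chrX:141475265-141475384, plus strand): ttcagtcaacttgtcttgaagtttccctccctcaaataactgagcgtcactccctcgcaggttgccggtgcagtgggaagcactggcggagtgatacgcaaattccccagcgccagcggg
Col4a6 (chrX:141474077-141474196, minus strand): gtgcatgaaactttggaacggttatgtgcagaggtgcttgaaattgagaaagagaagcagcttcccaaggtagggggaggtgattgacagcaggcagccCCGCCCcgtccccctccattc
Col18a1 (chr10:77166549-77166668, minus strand): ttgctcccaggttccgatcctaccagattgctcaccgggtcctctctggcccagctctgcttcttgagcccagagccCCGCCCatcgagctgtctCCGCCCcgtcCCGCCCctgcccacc
Col27a1 (chr4:63215292-63215411, plus strand): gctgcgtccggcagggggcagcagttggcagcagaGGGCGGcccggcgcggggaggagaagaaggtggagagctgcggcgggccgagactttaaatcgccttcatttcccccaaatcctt
The stretch of Col4a5 held 0 matches, that of Col4a6 1, that of Col18a1 3 and that of Col27a1 1. The Col4a5 stretch lies 35 to 154 bases before its start and that of Col18a1 19 to 138. The Col18a1 stretch lies before the upstream one of its 2 RefSeq starts, which are 52825 bases apart. Counts per gene sum over both starts, so they do not show which start was used. Promoter windows of 250 bases before to 50 after the start were found in RefSeq for 25 of the 29 tested genes, with 27 windows in all. The GC box was in 18 of the 27 windows (66.7%) and in 35.7% of all 32851 windows. Col4a5 was among the genes with a GC box in this wider window. CCAAT was in 25.9% of the 27 and in 37.4% of all, TATAAA in 7.41% and 13.6%, and AGGTCA, the half-site of many nuclear receptors including REV-ERB, in 22.2% and 16.3%, each on either strand. The 6 genes with AGGTCA were Col4a4, Col6a5, Col7a1, Col20a1, Col23a1 and Col24a1. A match is a run of letters, not a bound site.

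The 2 multiplexins moved in opposite directions. Col18a1, the precursor of endostatin, which hepatocytes are known to express, had by far the highest level of the 37 genes in every group: 181 ± 10.2 CPM per kilobase of exon (SD, n = 4) in Chow, against 7.99 for Col27a1, the next. Col18a1 was at 1311, 1337, 1173 and 1273 CPM in Chow, 860.2, 609, 751, 927 and 874 in Vehicle and 731, 718, 866, 762 and 851 in SR9009. All 10 diet-fed libraries lay below all 4 Chow libraries, and the gene fell by 0.66 ± 0.114 on the log2 scale in Vehicle (adjusted p = 1.34e-04), 1.58-fold. This call depends on the scaling of libraries: on library totals without TMM the log2 fold change was -0.19 with an adjusted p of 0.0922, while the median of all genes moved from 0.0235 to 0.503. Hepatocyte markers moved with it on the TMM scale. Their sum had a median of 127917 CPM in Chow, 88003 in Vehicle and 75493 in SR9009. This sum depends on the scaling too and was not taken on library totals without TMM. The TMM factors, 0.753 to 0.824 in Chow and 1.02 to 1.15 in diet-fed libraries, raise Chow levels relative to the others. The part of hepatocyte markers in the fall of Col18a1 was not tested. Col15a1, a collagen of capillary and muscle basement membranes, was at 12.3, 22.1, 19.5 and 21.3 CPM in Chow, 39.4, 42.8, 32.3, 40.8 and 30.3 in Vehicle and 34.3, 39.4, 19.7, 35.5 and 33.9 in SR9009. It rose 1.97-fold in Vehicle (0.98 ± 0.198, adjusted p = 6.47e-04), with every Vehicle library above every Chow library; SR9009 replicate 3 lay within the Chow range. Col7a1, the collagen of the anchoring fibrils of skin, was at 0.281, 2.06, 1.13 and 1.2 CPM in Chow, 1.55, 1.48, 1.24, 1.48 and 0.577 in Vehicle and 0.976, 1.67, 0.754, 1.69 and 1.37 in SR9009. The groups overlapped and the log2 fold change was 0.11 ± 0.423 (adjusted p = 0.848).

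Of the network collagens, Col8a1 rose. Type VIII collagen is known from vessel walls and from a membrane of the cornea. Col8a1 was at 0.877, 0.888, 0.397 and 0.495 CPM in Chow, 5.45, 5.29, 3.71, 2.81 and 2.33 in Vehicle and 3.67, 5.78, 6.45, 5.76 and 4.95 in SR9009, a 5.82-fold rise in Vehicle (2.54 ± 0.32, adjusted p = 6.59e-06) with no overlap. Col8a2, its partner chain, was at 0.807, 0.258, 0.43 and 0.453 CPM in Chow, 2.19, 1.44, 1.57, 1.13 and 0.47 in Vehicle and 0.191, 2.47, 0.78, 2.09 and 1.73 in SR9009. Its log2 fold change of 1.49 ± 0.613 did not pass the test (adjusted p = 0.0511), and it passed in 4 of 14 fits that each left out 1 library (Chow replicate 1, Vehicle replicate 5, SR9009 replicate 1 or SR9009 replicate 2), with an adjusted p between 0.013 and 0.134 over the 14. It also passed with DESeq2 (adjusted p = 0.0211), in a fit of Vehicle and Chow alone (0.0146), with a stricter filter on low counts (0.0455) and on library totals without TMM (0.0112). Col10a1, a cartilage collagen, was not tested and had at most 7 counts.

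The 3 main type VI chains rose. Col6a1 and Col6a2 encode the 2 short chains and Col6a3 the long chain, whose end is cut off as endotrophin. Col6a1 was at 13.6, 12, 8.54 and 7.87 CPM in Chow, 71.9, 88.4, 56.8, 59.5 and 44.3 in Vehicle and 47.8, 115, 36.5, 95.9 and 90.9 in SR9009. Col6a2 was at 9.05, 6.3, 5.26 and 5.48 CPM in Chow, 51, 71.3, 39.3, 36.1 and 30.3 in Vehicle and 32.4, 80.5, 23.6, 64.5 and 66.7 in SR9009. Both rose with no overlap, 6.1-fold (2.61 ± 0.347, adjusted p = 2.72e-05) and 6.98-fold (2.8 ± 0.391, adjusted p = 4.17e-05). Col6a3 was at 14.8, 15.5, 10.9 and 6.76 CPM in Chow, 124, 123, 126, 142 and 97.7 in Vehicle and 128, 171, 82.8, 169 and 100.4 in SR9009, a 10.2-fold rise (3.35 ± 0.271, adjusted p = 1.96e-07) in which the lowest diet-fed library was at 82.8 CPM and the highest Chow library at 15.5. Col28a1, a related chain with low counts, was at 0.175, 0.0286, 0.132 and 0 CPM in Chow, 0.456, 0.706, 2.73, 0.708 and 0.534 in Vehicle and 0.233, 4.28, 0.286, 2.9 and 1.42 in SR9009. Its log2 fold change was 3.55 ± 1.11 (adjusted p = 0.0137), from Chow libraries with at most 0.175 CPM, and limma-voom did not call it (adjusted p = 0.0776). Without Vehicle replicate 3, the highest Vehicle library, it was 2.78 (adjusted p = 0.0358), and over the 14 fits that each left out 1 library it lay between 2.78 and 4.14. Col6a5 and Col6a6 encode chains that resemble that of Col6a3. Col6a5 was at 0, 0.344, 0.265 and 0.989 CPM in Chow, 0.844, 1.81, 0.518, 0.344 and 0.214 in Vehicle and 0.636, 0.847, 0.676, 0.939 and 18.1 in SR9009. Col6a6 was at 0.456, 0.544, 0.43 and 0.824 CPM in Chow, 1.0, 4.8, 1.7, 0.931 and 0.384 in Vehicle and 0.721, 3.14, 0.728, 2.07 and 3.65 in SR9009. Neither passed the test in Vehicle: the log2 fold changes were 0.93 ± 1.31 (adjusted p = 0.57) and 1.65 ± 0.703 (adjusted p = 0.0597), and Col6a6 passed when Vehicle replicate 5 was left out (lowest adjusted p of the 14 fits 0.0229), with DESeq2 (0.0161) and on library totals without TMM (0.017). Without Vehicle replicate 2 the log2 fold change of Col6a6 was 0.84. That of Col6a5 was 0.31 without Vehicle replicate 2 and 1.81 without Chow replicate 4.

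Among the FACIT chains 4 rose and 1 fell. Col14a1, which binds fibril surfaces and is known from liver fibroblasts, was the most abundant. It was at 55.3, 63.4, 44.2 and 35.2 CPM in Chow, 113, 118, 106, 127 and 110.5 in Vehicle and 146, 144, 132, 118 and 96.3 in SR9009, a 2.32-fold rise (1.21 ± 0.153, adjusted p = 7.72e-06) with no overlap. Col12a1, a fibril-surface collagen of dense connective tissue, was at 3.54, 3.64, 4.63 and 3.75 CPM in Chow, 8.76, 11.3, 8.36, 8.52 and 7.73 in Vehicle and 8.4, 11.2, 5.46, 9.77 and 8.62 in SR9009. Col16a1, found in small amounts in many connective tissues, was at 3.61, 4.18, 2.61 and 1.94 CPM in Chow, 16.7, 14.8, 14.8, 14.9 and 12.5 in Vehicle and 14.6, 23.4, 11.8, 18.1 and 17.5 in SR9009. They rose 2.29-fold (1.2 ± 0.185, adjusted p = 4.61e-05) and 4.73-fold (2.24 ± 0.218, adjusted p = 5.77e-07), with every diet-fed library above every Chow library. Col9a3, a chain of the cartilage collagen IX, was at 0.175, 0.20, 0.166 and 0.618 CPM in Chow, 1.23, 1.55, 1.66, 1.09 and 0.961 in Vehicle and 1.1, 2.27, 0.65, 1.81 and 1.82 in SR9009. It rose 4.6-fold (2.2 ± 0.443, adjusted p = 5.26e-04), from Chow libraries of which 3 were at or below 0.20 CPM. Without Chow replicate 4, the highest of them, the log2 fold change was 2.83 (adjusted p = 7.12e-05). Its partner chain Col9a2 was at 0.0351, 0, 0 and 0.165 CPM in Chow, 0.228, 0.259, 0.435, 0.182 and 0.0427 in Vehicle and 0.0636, 0.423, 0.078, 0.277 and 0.545 in SR9009, with several values at or below the level of 3 counts, and its log2 fold change of 2.3 ± 0.991 did not pass the test (adjusted p = 0.0604); it passed without Chow replicate 4, where it was 4.08 (adjusted p = 0.0127), or without Vehicle replicate 5 (0.0323), and also with limma-voom (0.0364), DESeq2 (0.0407) and library totals without TMM (0.0227). Col20a1 moved the other way. It was at 2.18, 4.35, 4.63 and 2.39 CPM in Chow, 0.776, 1.11, 0.87, 1.01 and 0.662 in Vehicle and 0.594, 0.872, 0.598, 0.597 and 0.924 in SR9009, all diet-fed libraries below all Chow libraries, and fell 3.83-fold (-1.94 ± 0.269, adjusted p = 1.71e-05).

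The 3 tested transmembrane collagens each behaved differently. Col13a1, which takes part in cell adhesion and at the neuromuscular junction, was at 4.35, 3.75, 5.3 and 6.22 CPM in Chow, 6.55, 2.38, 6.96, 4.8 and 3.54 in Vehicle and 5.87, 7.42, 7.51, 7.23 and 6.23 in SR9009. Vehicle and Chow overlapped, with a log2 fold change of -0.01 ± 0.256 (adjusted p = 0.97). Col23a1 was at 0.491, 0.659, 0.364 and 0.247 CPM in Chow, 1.03, 1.25, 1.28, 0.789 and 0.363 in Vehicle and 0.70, 0.797, 0.962, 1.37 and 0.782 in SR9009. It was called higher in Vehicle (1.07 ± 0.386, adjusted p = 0.0273), although Vehicle replicate 5 lay within the Chow range, and the call was lost in 4 of the 14 fits that each left out 1 library (Chow replicate 3, Chow replicate 4, Vehicle replicate 2 or Vehicle replicate 3; adjusted p up to 0.0775) and with limma-voom (adjusted p = 0.0612). Col25a1, best known from neurons, was at 0.947, 0.83, 1.29 and 0.866 CPM in Chow, 0.297, 0.259, 0.145, 0.101 and 0.214 in Vehicle and 0.212, 0.0747, 0.052, 0.171 and 0.379 in SR9009. It fell 4.82-fold (-2.27 ± 0.465, adjusted p = 6.09e-04) with no overlap, to levels that in 2 of the 5 SR9009 libraries were at or below 3 counts.

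Of the fibril-forming chains kept by the rule, Col27a1 fell. It is known from cartilage, and in Chow it was second to Col18a1 per kilobase. Col27a1 was at 95, 131, 129.6 and 60.9 CPM in Chow, 31.1, 27.2, 31.1, 34.1 and 21.6 in Vehicle and 21.7, 29.9, 19.3, 37.9 and 20.9 in SR9009, so that the lowest Chow library was at 60.9 CPM and the highest diet-fed library at 37.9. It fell 3.59-fold in Vehicle (-1.84 ± 0.238, adjusted p = 1.61e-05). The sum of 8 skin and cartilage markers was low but moved with it, at 9.9 to 12.4 CPM in Chow, 5.74 to 7.26 in Vehicle and 6.9 to 9.38 in SR9009, with every diet-fed library below every Chow library and Acan at 0 in every library. Of the 5 that could be tested, 1 was called higher and 1 lower in Vehicle, against 29.8% and 25.4% of all tested genes. Their log2 fold changes ran from -3.55 to 6.35, so the sum hides markers that moved the other way. The part of these markers in the fall of Col27a1 was not tested. Col11a2, a chain of cartilage collagen XI, was at 0.491, 2.92, 2.18 and 1.69 CPM in Chow, 1.07, 1.67, 1.04, 1.4 and 1.39 in Vehicle and 1.21, 0.523, 2.44, 0.939 and 1.18 in SR9009. It did not pass the test (-0.48 ± 0.428, adjusted p = 0.361). Col24a1 stayed at or below 0.495 CPM in every library except SR9009 replicate 5, and it did not pass the test in Vehicle either (-0.81 ± 0.631, adjusted p = 0.292).

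**Figure D2:**
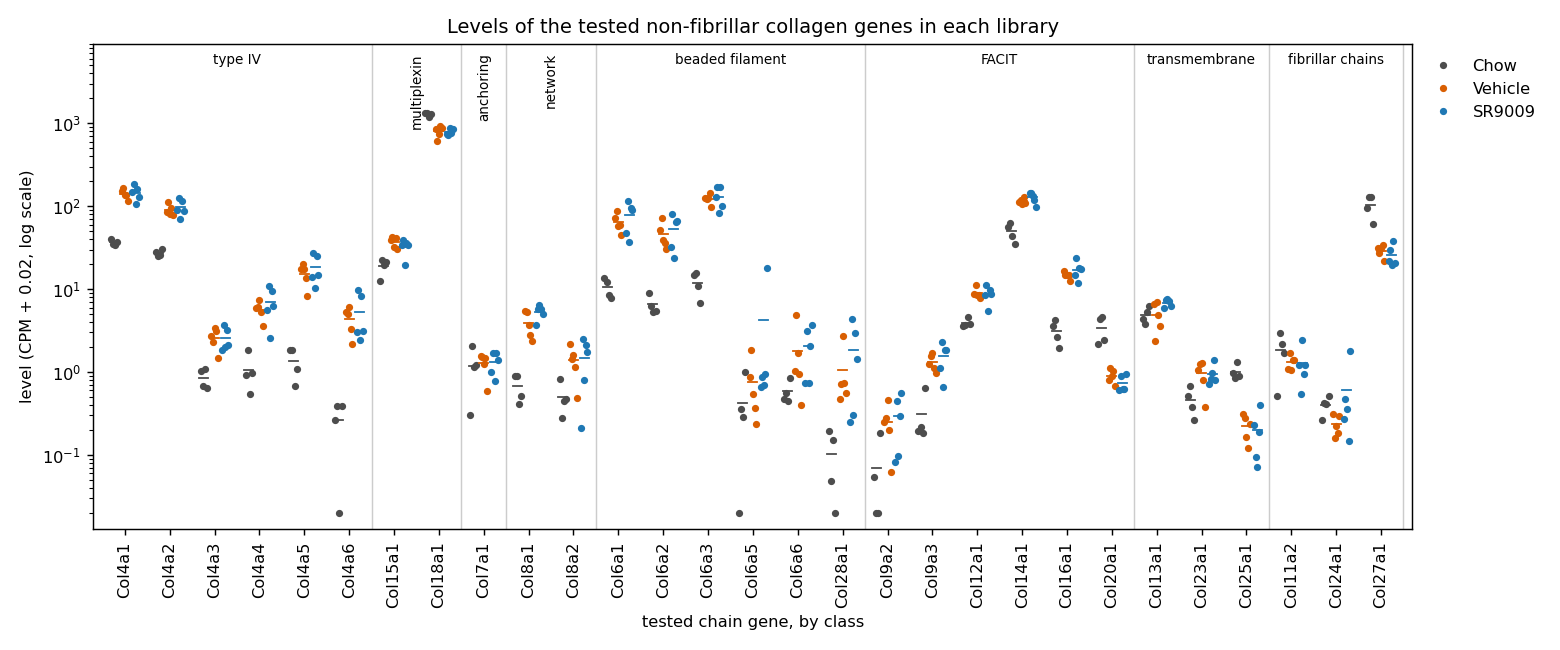
Level of each tested gene (x axis, grouped by class) in each library, as CPM plus 0.02 on a log axis; points are libraries (4 Chow, 5 Vehicle, 5 SR9009) and short lines the group means. Col18a1, at 609 to 1337 CPM, lies above all other genes; Vehicle and SR9009 points overlap for every gene, and SR9009 replicate 5 stands alone for Col6a5 at 18.1 CPM.

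Summed over all 37 genes, of which Col18a1 is the most abundant, the level was 1565 ± 91.8 CPM (SD, n = 4) in Chow, 1521 ± 107 (n = 5) in Vehicle and 1563 ± 134 (n = 5) in SR9009. Without Col18a1 the sum was 291 ± 45.4 CPM in Chow, 717 ± 94.6 in Vehicle and 777 ± 178 in SR9009. Both sums depend on the TMM scaling, which raises Chow levels relative to diet-fed ones, and were not taken on library totals without it. The similar totals over all 37 genes therefore do not show that their RNA was unchanged. Shares within a library, given next, do not depend on this scaling. As a share of all collagen CPM, Col18a1 went from 72.5 ± 1.99% in Chow to 34.4 ± 5.43% in Vehicle and 32.8 ± 7.6% in SR9009. Per kilobase of exon its share was 75 ± 1.31%, 37.7 ± 5.72% and 36.1 ± 7.77%. The 7 fibrillar chains that the rule leaves out made up 10.9 ± 0.693% of collagen CPM in Chow, 35.1 ± 2.44% in Vehicle and 35.8 ± 5.71% in SR9009. Beaded-filament chains went from 1.7 ± 0.352% to 10 ± 1.56% and 10.7 ± 2.21%, type IV chains from 3.83 ± 0.328% to 11.1 ± 1.45% and 11.1 ± 1.33%, and FACIT chains from 3.41 ± 0.592% to 6.03 ± 0.284% and 6.45 ± 1.3%. These shares are descriptions and were not tested.

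**Figure D3:**
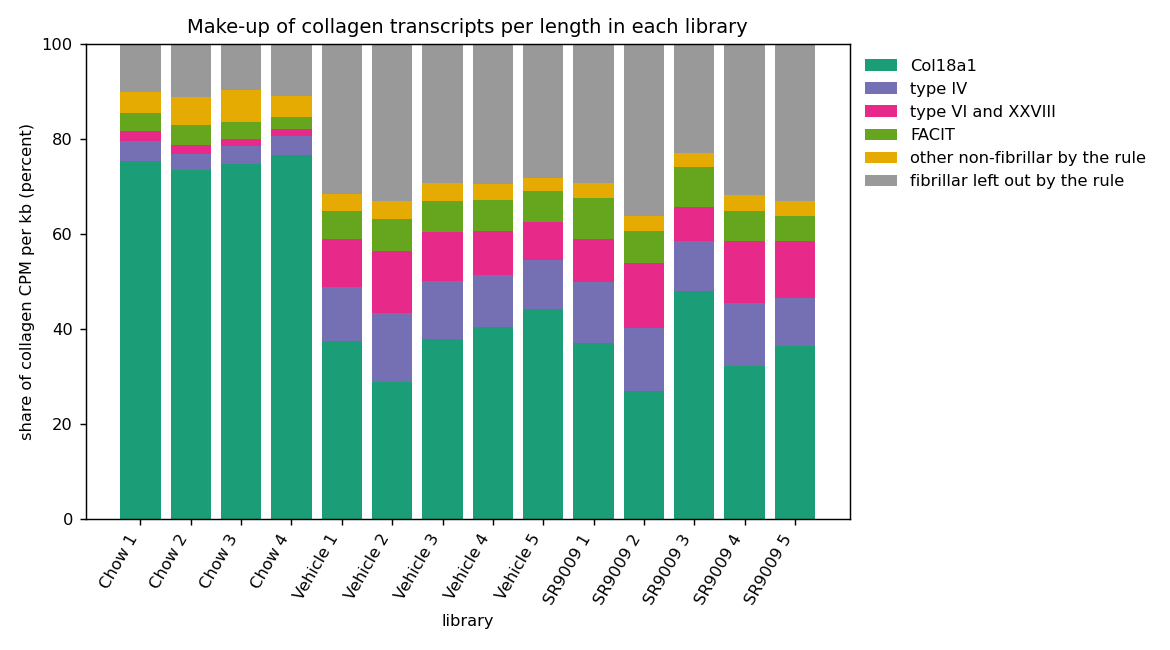
Share of all collagen CPM per kilobase of exon (y axis, percent, from 0 to 100) held by each class in each library (x axis); each stacked bar is 1 library. Col18a1 holds between 73.4 and 76.5% in the 4 Chow libraries and between 27 and 48% in the 10 diet-fed libraries.

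Ratios between 2 chains within a library do not depend on how libraries are scaled, and 12 were compared by exact two-sided permutation tests over libraries, adjusted over the 12 pairs. With 5 against 4 libraries the smallest p such a test can give is 0.0159. Between Vehicle and Chow 11 of the 12 ratios passed, 3 higher and 8 lower. All 7 ratios to Col1a1, the main chain of scar collagen, were lower in Vehicle (p = 0.0159 each, exact permutation test, adjusted p = 0.019). These 7 share Col1a1 as their denominator, so they are not independent results. Col1a1 itself rose with a log2 fold change of 4.23 ± 0.318 in the edgeR fit, and Col3a1 with 3.48 ± 0.272. The log2 ratio of Col4a1 to Col1a1 was 1.57, 1.68, 2.35 and 2.7 in Chow, -0.26, -0.25, -0.13, -0.44 and -0.37 in Vehicle and 0.05, -0.54, 0.05, -0.40 and -0.63 in SR9009. It was thus above 0 in all Chow libraries and below 0 in all Vehicle libraries, a 5.16-fold fall. The ratio of Col6a1 to Col1a1 fell 3.25-fold, that of Col8a1 3.43-fold, that of Col14a1 8.34-fold, that of Col12a1 8.67-fold, that of Col15a1 9.88-fold and that of Col18a1 31.7-fold.

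Chains of one class also changed relative to each other. The log2 ratio of Col4a5 to Col4a1 was -4.46, -4.23, -5.63 and -5.09 in Chow and -3.14, -3.05, -2.97, -3.32 and -3.78 in Vehicle, a 3.04-fold rise with no overlap (p = 0.0159, exact permutation test, adjusted p = 0.019). The ratio of Col6a3 to Col6a1 rose 1.75-fold and that of Col18a1 to Col15a1 fell 3.2-fold, both with the same p and no overlap. Between SR9009 and Chow the ratio of Col6a3 to Col6a1 was 1.6-fold higher, with overlapping libraries, and did not pass (p = 0.0476, exact permutation test, adjusted p = 0.0519). The difference of -0.16 in the ratio of Col6a1 to Col6a2 did not pass (p = 0.175, exact permutation test). The difference of 0.22 in the ratio of Col4a1 to Col4a2 passed (p = 0.0317, exact permutation test, adjusted p = 0.0346), but the libraries overlapped, and the call was lost in 7 of the 9 fits that each left out 1 library, all but those without Chow replicate 1 and without Vehicle replicate 4 (adjusted p up to 0.0779). Those smaller designs have larger attainable p-values.

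**Figure D4:**
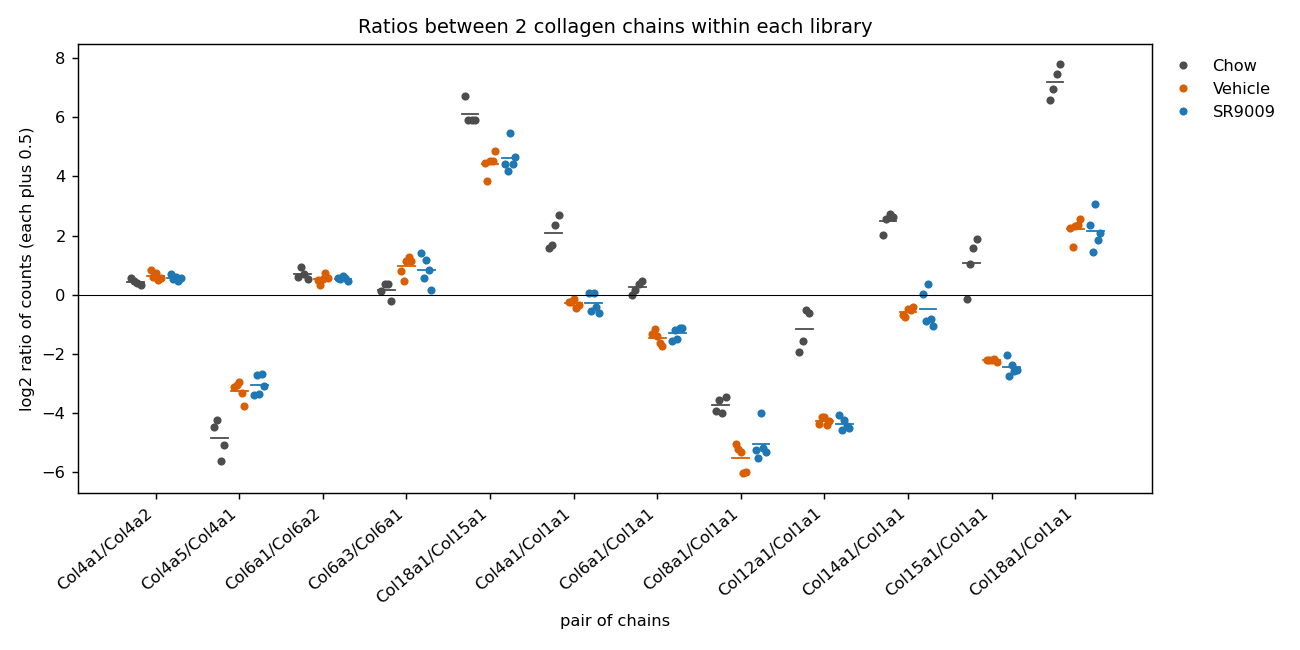
Log2 ratio of the counts of 2 chains, each plus 0.5 (y axis), for the 12 pairs (x axis); points are libraries and short lines group means. The ratios to Col1a1 lie lower in the diet-fed libraries than in Chow, Col4a5/Col4a1 lies higher, and Vehicle and SR9009 overlap in every pair.

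Genes that make, process and bind collagen include both higher and lower calls, and each count is to be read against the 29.8% of all tested genes called higher and 25.4% called lower in this comparison. Of 20 tested genes of collagen synthesis and folding, 9 were higher and 8 lower in Vehicle than in Chow (median log2 fold change 0.0207). The 4 with the smallest adjusted p were Plod2, a lysyl hydroxylase (2.61 ± 0.231), Crtap, a part of the prolyl hydroxylation complex (1.68 ± 0.166), and the prolyl hydroxylase family members P3h3 (1.84 ± 0.185) and P3h2 (2.31 ± 0.238), P3h2 being known to act on type IV collagen. Of 13 tested genes of processing and crosslinking, 10 were higher and 2 lower, with the crosslinking oxidases Lox (4.28 ± 0.284) and Loxl2 (2.43 ± 0.207), the latter known to crosslink type IV collagen, the enhancer Pcolce (1.57 ± 0.153) and the protease Adamts2 (2.59 ± 0.252) leading. Of 18 tested collagen receptors, 13 were higher and 1 lower, led by Cd44 (2.66 ± 0.188), Ddr1 (3.79 ± 0.28), Mrc2, which takes up collagen (3.14 ± 0.256), and Lair1 (2.38 ± 0.255). Of the 24 basement membrane partners, 16 were higher and 4 lower: the linker Nid1 (2.24 ± 0.22), Sparc (2.04 ± 0.216) and the laminin chain Lama2 (2.34 ± 0.257) rose, and Fras1 (-1.25 ± 0.123) fell. Of 15 tested collagen-binding proteins, 13 were higher and 1 lower, led by Tnc (3.2 ± 0.195), Dcn (1.59 ± 0.113), Lum (3.97 ± 0.315) and Bgn (2.02 ± 0.211). Of the 6 tested fibrillar chains, 5 were higher and 1 lower, with a median of 3.47.

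Marker sums of most of the cell types that could hold these collagens were also higher in Vehicle; the shares of all genes called, 29.8% higher and 25.4% lower, apply to the counts here too. The summed level of 14 stellate cell markers was 260.1 to 372 CPM in Chow, 495 to 579 in Vehicle and 509.5 to 694 in SR9009, and 12 of the 14 were called higher and 1 lower in Vehicle. The sum of 12 portal fibroblast and vascular smooth muscle markers was 24.9 to 29.3 CPM in Chow, 132 to 237 in Vehicle and 142 to 283 in SR9009, with 9 of 11 tested genes higher. Myofibroblast and cholangiocyte markers share Spp1. Without it, 12 myofibroblast markers summed to 24 to 33.2 CPM in Chow, 84.9 to 119.7 in Vehicle and 95.1 to 129.5 in SR9009, and 11 cholangiocyte markers to 40.8 to 62, 100.4 to 200.5 and 118 to 243. All 12 cholangiocyte markers, Spp1 included, were called higher in Vehicle. Endothelial markers, 14 genes, summed to 393 to 486 CPM in Chow, 397 to 576 in Vehicle and 520 to 546 in SR9009. Vehicle overlapped with both other groups, while every SR9009 library lay above every Chow library. In Vehicle 4 of the 14 were called higher and 3 lower, close to the shares of all genes. In SR9009 against Chow 5 were called higher and 2 lower, against 30.5% and 25.7% of all tested genes. The sum of 10 mesothelial markers was 323 to 468 CPM in Chow, 599.7 to 837 in Vehicle and 777 to 946 in SR9009, with every diet-fed library above every Chow library. All 10 had a log2 fold change above 0, and 5 were called higher in Vehicle and 10 in SR9009 against Chow. The part of these cells in the collagen changes was not tested.

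SR9009 was compared with Vehicle to ask whether the agonist changed these genes in mice on the diet. None of the 29 tested genes was called by edgeR, limma-voom or DESeq2 (which gave an adjusted p for 26 of them), against 0.165% of all tested genes called higher and 0.077% lower by edgeR. At an unadjusted p under 0.05 in edgeR there were 2 of 29, Col24a1 and Col6a5, against 7.28% of all tested genes. The median log2 fold change was 0.15 over the 29 genes and 0.00112 over all genes. For some chains the interval of the difference was narrow. As a fold of SR9009 over Vehicle with its 95% interval, Col18a1 was at 0.977 (0.833 to 1.15), Col4a1 at 1.03 (0.85 to 1.24), Col4a2 at 1.08 (0.882 to 1.33), Col14a1 at 1.11 (0.902 to 1.36) and Col12a1 at 0.972 (0.763 to 1.24). Intervals were wider for type VI chains and for others that rose with the diet: Col6a3 1.06 (0.765 to 1.48), Col6a1 1.2 (0.776 to 1.87), Col6a2 1.17 (0.724 to 1.9), Col28a1 1.77 (0.597 to 5.23), Col4a5 1.2 (0.766 to 1.87) and Col4a6 1.23 (0.635 to 2.38). All of these intervals hold a fold of 1, and that of Col28a1 holds large differences as well. Without Vehicle replicate 3 the log2 fold change of Col28a1 was 1.6 instead of 0.82.

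The largest fold estimates in this comparison came from 1 library. SR9009 replicate 5 had 18.1 CPM of Col6a5, and the other 9 diet-fed libraries had 0.214 to 1.81 CPM. Col24a1 was at 0.246, 0.401, 0.397 and 0.495 CPM in Chow, 0.297, 0.141, 0.207, 0.162 and 0.278 in Vehicle and 0.254, 0.448, 0.338, 0.128 and 1.78 in SR9009, with the same library highest. Leaving out SR9009 replicate 5 moved the log2 fold change of Col6a5 from 2.52 to 0.0623 and that of Col24a1 from 1.43 to 0.41. That library also had the highest sums of mesothelial markers (946 CPM, against 599.7 to 854 in the other diet-fed libraries) and of red blood cell markers (888 CPM, against 106 to 475); their part was not tested. Col13a1 had 4 of 5 SR9009 libraries at 6.23 CPM or more, but its fold of 1.41 (0.997 to 2.0) did not pass (edgeR adjusted p = 0.692). None of the 12 chain ratios passed the test between SR9009 and Vehicle: the smallest p was 0.0794 for Col15a1/Col1a1 (exact permutation test, 5 against 5, where the smallest possible p is 0.00794; adjusted p = 0.841), with a difference of -0.24. Among the genes of the collagen pathway lists only Plod1, a lysyl hydroxylase, was called, with a log2 fold change of 0.33 ± 0.0562 (adjusted p = 0.0224). That call was lost in 6 of the 14 fits that each left out 1 library (Vehicle replicate 1, 3 or 5, or SR9009 replicate 1, 4 or 5; adjusted p up to 0.0716). It was also lost with the replicate block (0.119), on library totals without TMM (0.116), without a filter on low counts (0.0832) and in a fit of the 2 groups alone (0.057).

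SR9009 was also compared with Chow, which shares its control libraries with the comparison of Vehicle and Chow, so the values are given side by side and are not independent. Here 21 of 29 genes were higher and 4 lower, against 30.5% and 25.7% of all tested genes. Col4a1 had a log2 fold change of 1.99 ± 0.145 in SR9009 and 1.95 ± 0.145 in Vehicle, Col4a5 of 3.75 ± 0.396 and 3.49 ± 0.393, Col6a3 of 3.44 ± 0.272 and 3.35 ± 0.271, Col8a1 of 2.98 ± 0.323 and 2.54 ± 0.32, Col18a1 of -0.70 ± 0.114 and -0.66 ± 0.114, and Col27a1 of -2.0 ± 0.24 and -1.84 ± 0.238. The 4 genes called only here were Col6a5, Col6a6, Col8a2 and Col9a2, and whether they differ between the injected groups is given by the comparison of SR9009 with Vehicle, which called none of them. Each of these calls had an adjusted p between 0.0341 and 0.0391 and was lost in 4 to 6 of the 14 fits that left out 1 library: all 4 were lost without Chow replicate 2, Chow replicate 3 or SR9009 replicate 5, 3 also without Chow replicate 1 (not Col8a2), 3 without SR9009 replicate 2 or 4 (not Col6a5), and Col8a2 without Chow replicate 4, with adjusted p-values of up to 0.296. Other settings also ended calls: Col6a5 and Col8a2 with limma-voom (adjusted p = 0.0993 and 0.0899), Col6a5, Col6a6 and Col8a2 without a filter on low counts (0.0797 to 0.0965), Col6a5 in a fit of the 2 groups alone (0.0802), and all 4 with the replicate block (0.0627 to 0.298). Col13a1, not called here, passed on library totals without TMM (0.00558), in a fit of the 2 groups alone (0.0242) and without Vehicle replicate 2 (0.0492). Col23a1 was called (adjusted p = 0.031) and lost its call without Chow replicate 3, Chow replicate 4 or SR9009 replicate 4, with an adjusted p of up to 0.0871.

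Among the diet-fed libraries, several of these genes were higher where many receptor genes were detected than where few were. In 7 of the 29 genes (Col4a4, Col4a5, Col6a2, Col6a6, Col8a2, Col9a2 and Col9a3) all 6 libraries with many receptor genes lay above all 4 with few, against 5.7% of all tested genes, and in none did they lie below, against 2.96%. Col6a2 was between 23.6 and 36.1 CPM in the libraries with few and between 39.3 and 80.5 in those with many. Col4a5 was between 8.35 and 14 CPM in those with few and between 14.9 and 27.4 in those with many, and Col4a4 between 2.57 and 5.51 and between 5.93 and 10.9. The other four were lower: Col8a2 lay between 0.191 and 1.13 CPM and between 1.44 and 2.47, Col9a3 between 0.65 and 1.1 and between 1.23 and 2.27, Col6a6 between 0.384 and 0.931 and between 1.0 and 4.8, and Col9a2 between 0.0427 and 0.182 and between 0.228 and 0.545. The cholangiocyte sum without Spp1 was 100.4 to 141 CPM in the libraries with few and 158 to 243 in those with many, and the portal fibroblast sum 132 to 161 and 183 to 283; their part in this pattern was not tested. This split was found in the data, is no group of the study and was not tested. With it as a term in a fit of the diet-fed libraries, 0 of 28 tested genes were called between SR9009 and Vehicle. Of all 17410 genes in that fit, 57 were called higher and 49 lower. Within the libraries with few it was 0 of 27, against 25 higher and 6 lower of all 17465 genes. Within those with many it was 0 of 29, against 15 and 8 of 17860. The last 2 fits compared 2 with 2 and 3 with 3 libraries, so a count of 0 there says little. In the 3 fits, 1, 4 and 2 of the collagen genes had an unadjusted p under 0.05 in edgeR. No all-gene share at that p is given for these fits.

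**Figure D5:**
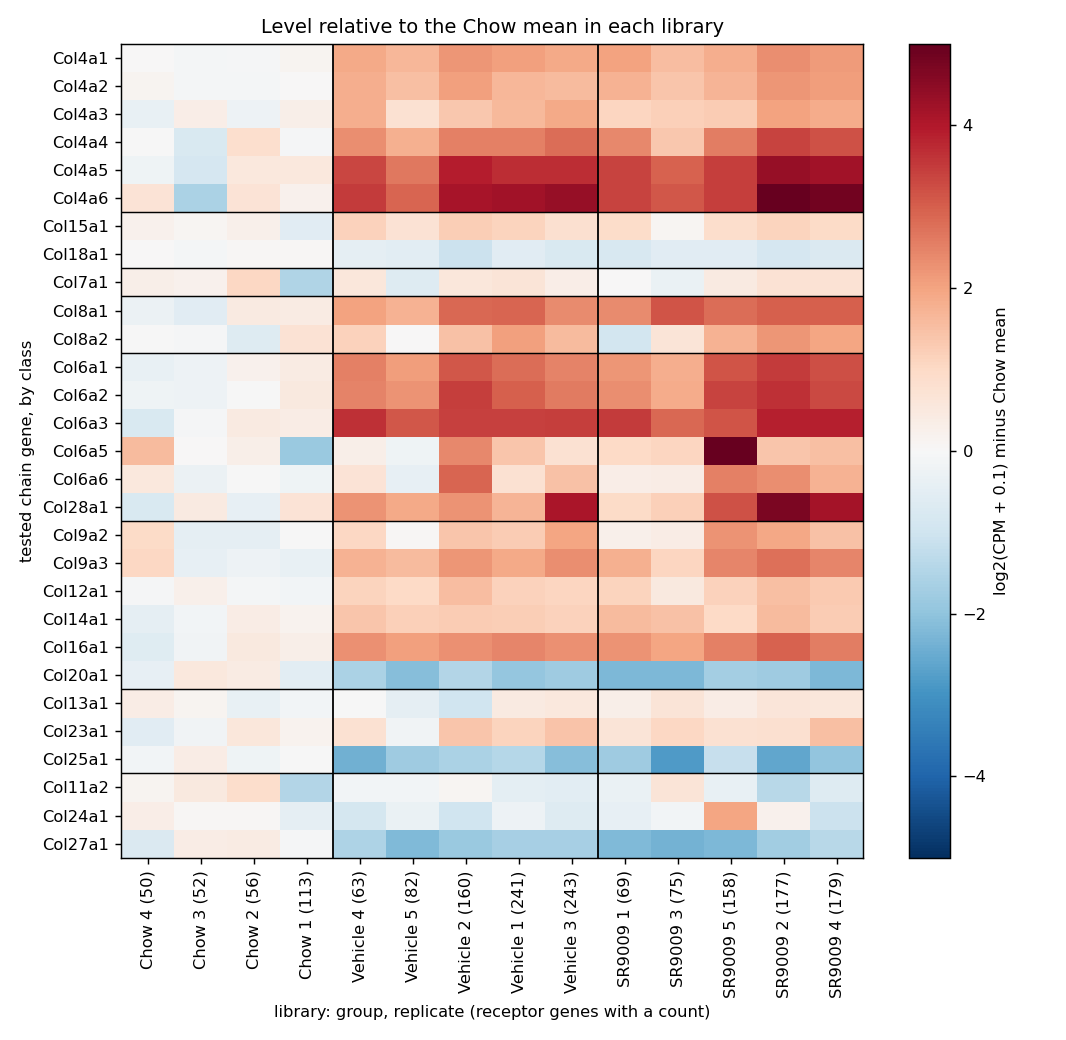
Level of each tested gene (rows, grouped by class) in each library (columns, ordered within a group by the number of receptor genes detected, in brackets), as log2(CPM + 0.1) minus the Chow mean. In each diet-fed group the rows of Col4a5 and Col6a2 are redder in the 3 libraries on the right, which have 158 to 243 receptor genes detected, and the rows of Col18a1, Col20a1, Col25a1 and Col27a1 are blue in all 10 diet-fed libraries.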

How the data were processed

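RNA was measured in 14 liver libraries, per the labels' protocols from snap-frozen pieces, with 29950509 to 45542335 counts each. The deposited values are raw counts per Ensembl gene, as the authors gave them; STAR 2.7.11b and the build GRCm39 are named in the submitters' processing notes. The read counter, its annotation and whether it used strand were not given in the sources used here. Symbols and exon lengths came from an annotation of GRCm38 and matched 51880 of 57132 identifiers.

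edgeR 4.0.16 in R 4.3.3 fitted all 3 groups at once (filterByExpr, minimum count 10 and total 15, which kept 18181 genes; TMM, with factors of 0.753 to 0.824 in Chow and 1.02 to 1.15 in diet-fed libraries; robust quasi-likelihood test; Benjamini-Hochberg over all 18181 genes, threshold 0.05). Standard errors are those that give the test's F. CPM uses TMM-scaled totals. A level of 3 counts covers counting error only. Chain ratios used counts plus 0.5 and exact permutation tests (SciPy). Of these steps, the edgeR comparison of SR9009 with Vehicle was tested on simulated counts.

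Genes with a mean of 1 CPM or more in a group or with a call are given in every library; of each pathway list the 4 genes with the smallest adjusted p are named, and Col1a1 and Col3a1 always. The genes, lists, tests and the library split by receptor genes (boundary 120 detected) were chosen with earlier results of these data known. Within groups, no 2 libraries agreed within sampling noise (26 pairs, lowest mean chi-square per gene 16.0). Alternatives were DESeq2 1.42.0, limma-voom (limma 3.58.1), other scalings and filters, fits of 2 groups, a replicate block, the library split and leaving out each library. 2 marker lists without Spp1 were added after seeing the data.

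Of the other marker lists, macrophages summed to 188 to 648 CPM in Chow, 1833 to 2776 in Vehicle and 1769 to 2177 in SR9009. Of these 12 markers, 8 were called higher and 1 lower in Vehicle than in Chow, against 29.8% and 25.4% of all tested genes. Their log2 fold changes ran from -3.19 to 12.0, so the sum hides markers that moved the other way. Muscle markers summed to 0.618 to 2.59 CPM over all libraries and pancreas markers to 12.1 to 48.1, highest in Chow, with Amy2a1 at 0 throughout.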

Additional observations from a re-analysis of the deposited data

Results flagged for a closer look

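In 8 of 123 groups of libraries (87 of genes, 36 of ratios) 1 library lay far from the others of its group by Dixon's criterion; chance gives about 1 in 20. Chow replicate 4 had 0.618 CPM of Col9a3, against 0.166 to 0.200 in the other Chow libraries. Vehicle replicate 2 had 11.3 CPM of Col12a1, against 7.73 to 8.76. Vehicle replicate 3 had 2.73 CPM of Col28a1, against 0.456 to 0.708. SR9009 replicate 3 had 19.7 CPM of Col15a1, against 33.9 to 39.4, and in the same library the log2 ratio of Col8a1 to Col1a1 was -4.00, against -5.52 to -5.19. SR9009 replicate 5 had 18.1 CPM of Col6a5, against 0.636 to 0.939, and 1.78 CPM of Col24a1, against 0.128 to 0.448. In Chow replicate 1 the log2 ratio of Col18a1 to Col15a1 was 6.73, against 5.90 to 5.92.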

How the results depend on the processing

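The number of genes called was within 1.5 times the main count under every alternative run, and no gene or ratio changed direction with a call. In Vehicle versus Chow, 16 to 20 genes were higher and 3 or 4 lower over all alternatives, and 16 to 20 and 4 when each library was left out. In SR9009 versus Chow, leaving out each library gave 16 to 22 higher and 4 lower. In SR9009 versus Vehicle it was 0 in all. Of the 12 ratios, 10 or 11 were called in Vehicle versus Chow, 9 or 10 in SR9009 versus Chow and 0 in SR9009 versus Vehicle when each library was left out. A pseudocount of 5 changed no ratio's call. Replicate numbers did not pair the libraries (13 same-numbered pairs, correlations from -0.362 to 0.196, 3 above 0.1). With the replicate block, 17 genes were higher and 4 lower in Vehicle versus Chow, 0 differed between SR9009 and Vehicle, and 17 instead of 21 were higher in SR9009 versus Chow, without Col6a5, Col6a6, Col8a2 and Col9a2. On library totals without TMM, 10389 of all tested genes were higher and 1378 lower in Vehicle, against 5414 and 4621 with TMM. Col6a6, Col8a2 and Col9a2 were then also higher, and Col18a1 was not called. Between SR9009 and Vehicle, all-gene calls were 124 higher and 88 lower with DESeq2, 41 and 23 with limma-voom and 14 and 1 with the block, against 30 and 14. Over single genes, 24 results crossed the threshold under other settings and 37 when 1 library was left out; the cause was not tested. Levels near 3 counts limit what can be said of some genes. These were Col9a2 in some libraries of each group, Col28a1 and Col4a6 in Chow, and Col25a1 in some SR9009 libraries.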

Other observations

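The 8 genes that were too low to test were not all at 0. Col17a1, a transmembrane collagen of epithelial adhesion, had 2 to 5 counts in the Chow libraries and at most 6 in any diet-fed library. Col22a1 reached 16 counts, Col19a1 11, and Col9a1, Col10a1 and Col26a1 7 each, in all 5 cases in a Vehicle library. Col2a1, the main cartilage collagen, had at most 1 count in any library, and Col6a4 at most 3.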
